A study of Mus musculus with 56 samples.

Results

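Immediate early transcription factors are encoded by genes that cells switch on within minutes of a stimulus, before any new protein is made. The 10 genes followed here were the EGR zinc finger genes Egr1, Egr2, Egr3 and Egr4, the FOS family genes Fos, Fosb and Fosl2, the JUN family genes Jun and Junb, and Ier2. They were taken by name from a gene table of 49997 entries, as a set put together with earlier results of these data known. The chosen intervals were the rows naming them in the authors' lists of lower and higher H2A.Z peaks, together with any H2A.Z peak over one of the genes or within 1 kb of it. That gave 16 intervals of the 61420 in the peak set, of which 12 were in the list of lower peaks, 0 in the list of higher peaks and 4 in neither. Of the 12, 7 lay away from the gene and were taken only because the list of lower peaks named it. Unlisted peaks so placed were not taken, so the 12 of 16 is partly set by the choice. Over the whole peak set, 14.8% of peaks were in the list of lower peaks and 0.518% in that of higher peaks.

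The measurement was CUT&Tag, where a transposase cuts next to an antibody-bound chromatin protein, on mouse embryonic stem cells of the line RHKI(E14Tg2a). Every group carried the genotype HA-Rnaseh1 knock-in, and the series describes Rnaseh1 as inducible. H2A.Z had 4 libraries from cells given doxycycline at 500 ng/ml for 48 hours and 4 libraries from control cells. The medium of all cells, 2i/LIF with 2% FBS, held 1 µM PD0325901, an inhibitor of MEK, the kinase that activates ERK, and 3 µM CHIR-99021, an inhibitor of GSK3. The other 48 of the 56 libraries, for other targets and IgG, are not analysed here. Lower and higher are taken from the names of the lists as doxycycline against control. They give each peak a place in a list and no value per library, so the depth and the replicate spread are unknown here, and no test over samples could be made. Lower H2A.Z at a peak therefore means only that the authors listed it. The labelled cell type was not tested by markers, since the files hold H2A.Z positions and no expression, and the induction of Rnaseh1 was not measured.

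RNase H1 digests the RNA of RNA:DNA hybrids, so its induction is a way to remove R-loops, in which a transcript pairs with its template DNA. H2A.Z is a variant of histone H2A that marks nucleosomes beside transcription starts and at enhancers, including at genes held ready for induction. EGR proteins bind GC-rich sites through zinc fingers, while FOS proteins pair with JUN proteins through leucine zippers to form AP-1. ERK signalling induces many of these genes through ETS factors and SRF, which binds the CArG box, and cyclic AMP signalling acts through CREB at the CRE.

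The sequences printed here are the stretches just before the starts, shown for the 5 genes of the promoter table with the widest H2A.Z peak across a start. They are RefSeq sequences of GRCm38.p6, given along the direction of transcription, and for 4 genes run from base −250 to base −1 before the start. Capitals mark a CArG box, a CRE core (TGACG), an AP-1 site (TGANTCA), an EGR site (GCGNGGGCG), a TATA box (TATAAA) or a CCAAT box (CCAAT) on either strand. Fosb lies at chr7:19310046-19310295 on the minus strand, Fosl2 at chr5:32136222-32136471 on the plus strand, Jun at chr4:95052223-95052472 on the minus strand and Junb at chr8:84978749-84978998 on the minus strand. For Egr2, which has another start close upstream, only 30 bases from −80 to −51 are shown, at chr10:67537789-67537818 on the plus strand, because they hold its CArG box. Egr2 and Fosl2 had a lower peak over this stretch, and Fosb, Jun and Junb had a peak in neither list.
Egr2: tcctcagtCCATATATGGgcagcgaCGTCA
Fosl2: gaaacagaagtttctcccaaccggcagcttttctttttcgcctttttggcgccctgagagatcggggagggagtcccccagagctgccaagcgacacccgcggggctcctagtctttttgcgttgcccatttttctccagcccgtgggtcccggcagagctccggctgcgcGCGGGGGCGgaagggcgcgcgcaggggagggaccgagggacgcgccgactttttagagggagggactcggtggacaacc
Fosb: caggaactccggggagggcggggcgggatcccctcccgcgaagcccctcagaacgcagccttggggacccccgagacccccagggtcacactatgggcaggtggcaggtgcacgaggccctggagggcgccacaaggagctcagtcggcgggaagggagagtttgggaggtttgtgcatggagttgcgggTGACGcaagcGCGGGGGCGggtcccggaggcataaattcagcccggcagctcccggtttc
Jun: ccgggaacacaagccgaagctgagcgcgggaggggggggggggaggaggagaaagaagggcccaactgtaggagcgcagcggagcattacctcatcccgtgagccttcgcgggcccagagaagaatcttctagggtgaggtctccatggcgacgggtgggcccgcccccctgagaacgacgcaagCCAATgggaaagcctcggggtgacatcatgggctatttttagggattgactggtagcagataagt
Junb: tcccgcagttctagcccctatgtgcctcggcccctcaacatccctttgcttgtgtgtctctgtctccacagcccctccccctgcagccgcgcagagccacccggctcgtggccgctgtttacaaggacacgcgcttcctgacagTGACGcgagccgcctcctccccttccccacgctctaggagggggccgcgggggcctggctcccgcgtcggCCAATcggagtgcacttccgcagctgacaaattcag

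The 4 EGR genes each had a lower H2A.Z peak over the gene, and Fosl2 had one over its start. Fos, Fosb, Jun and Junb each had an H2A.Z peak across the start that was in neither list, and Ier2 had no peak over the gene. So 9 of the 10 genes had a peak over the gene or within 1 kb, and it was lower at 5 and in neither list at 4. Among protein-coding genes no longer than the longest of the 10 (21369 base pairs) and with a peak so placed, 39.0% had a lower one. The genes were picked with earlier results known, so the 5 of 9 is a description and not independent evidence. The EGR genes made up 4 of the 5, and 1 of the 5 FOS and JUN genes was lower; this difference was not tested.

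**Figure D1:**
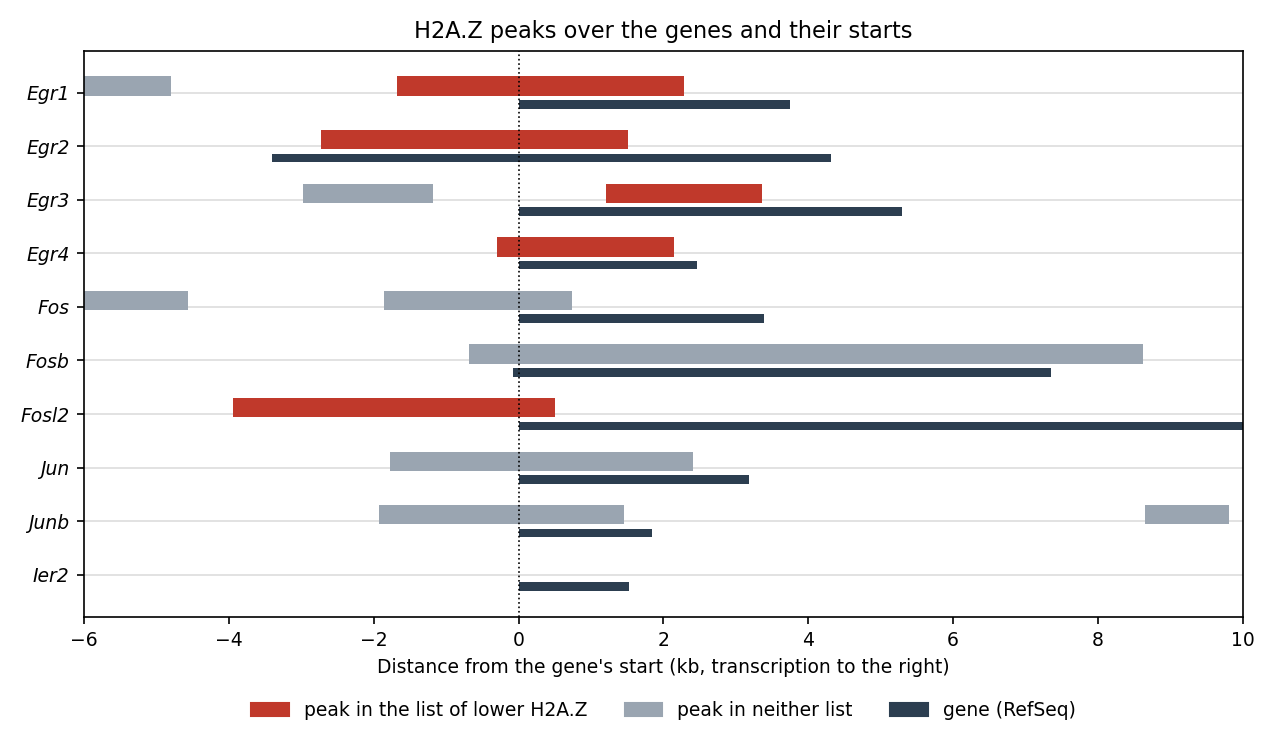
H2A.Z peaks over the 10 genes, one row per gene, with distance from the start in kb on the horizontal axis and transcription to the right. Red boxes are peaks in the list of lower H2A.Z, grey boxes are peaks in neither list and dark bars are genes: red boxes lie over Egr1, Egr2, Egr3, Egr4 and the start of Fosl2, and grey boxes over Fos, Fosb, Jun and Junb.

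Egr1 (chromosome 18, 34861207 to 34864956, GRCm38) encodes the EGR factor that serum and neuronal activity induce in many cell types. Its lower peak was 3969 base pairs wide (34859525 to 34863493), from 1682 base pairs before the start to 2286 after it, and covered 61.0% of the gene. In the authors' deposited table it was annotated to exon 1 of 2. The next peak upstream, of 1534 base pairs centred at −5.56 kb from the start, was in neither list, so the change listed at Egr1 was at the start alone among the 4 peaks within 50 kb of the gene.

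Egr2 (chromosome 10, 67534469 to 67542188), also called Krox-20, is needed for hindbrain segmentation and for myelination by Schwann cells. Its lower peak was 4231 base pairs wide (67535143 to 67539373) and spanned all 5 starts that the RefSeq promoter table gives for the gene. From the start used by the authors it reached 2726 base pairs upstream and 1504 downstream. The authors' deposited table placed it in the promoter class, the only one of the 12 lower rows so placed. The other 4 peaks within 50 kb were in neither list.

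Egr3 (chromosome 14, 70077317 to 70082613), which acts in muscle spindle development, had its lower peak inside the gene and not across the start. That peak was 2156 base pairs wide (70078526 to 70080681) and lay between 1209 and 3364 base pairs after the start, in exon 2 of 2 in the authors' deposited table. A peak of 1787 base pairs centred at −2.08 kb from the start was in neither list. The authors' list gave Egr3 a further lower peak of 888 base pairs (70056668 to 70057555), centred at −20.2 kb from the start and lying inside the neighbouring gene Pebp4. Egr3 is thus the EGR gene whose start itself was under no peak, with an unlisted peak on one side and a lower peak on the other.

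Egr4 (chromosome 6, 85511121 to 85513589, minus strand), an EGR gene of neurons and male germ cells, had a lower peak over nearly the whole gene. It was 2443 base pairs wide (85511441 to 85513883), covered 87.0% of the gene and reached only 294 base pairs before the start. In the authors' deposited table it was annotated to exon 2 of 2. The adjoining gene Fbxo41, which encodes an F-box protein, had 3 lower peaks, so that 4 of the 7 peaks within 50 kb of Egr4 were lower.

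Fosl2 (chromosome 5, 32136472 to 32157840), the gene of the AP-1 subunit Fra-2, was the FOS family gene with lower H2A.Z at its start. The peak was 4449 base pairs wide (32132522 to 32136970), the widest of the 12 lower peaks, and reached 3950 base pairs upstream but only 498 downstream. It was annotated as intergenic in the authors' deposited table, with its centre at −1726 base pairs from the start, yet it covered the start itself. A second lower peak of 1299 base pairs (32120760 to 32122058) was centred at −15.1 kb, overlapping the unnamed transcript Gm36665. The remaining 3 peaks within 50 kb, all more than 40 kb after the start, were in neither list.

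Fosb (chromosome 7, 19302696 to 19310118, minus strand), whose truncated product ΔFosB accumulates in stimulated neurons, had the widest peak of the 10 genes. It was 9321 base pairs wide (19301416 to 19310736), covered 100% of the gene and was in neither list. The peak set held 235 wider peaks. Both lower peaks assigned to Fosb were narrow and intergenic, of 627 base pairs (19319493 to 19320119) centred at −9.76 kb from the start and of 501 base pairs (19327021 to 19327521) centred at −17.2 kb. At Fosb the lower calls thus fell on small upstream peaks while the domain over the gene was unlisted.

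Jun (chromosome 4, 95049036 to 95052222, minus strand), the founding AP-1 gene, showed the same arrangement on the other side of the gene. Its peak of 4193 base pairs (95049812 to 95054004) ran from 1782 base pairs before the start to 2410 after it and was in neither list. The lower peak assigned to Jun was 653 base pairs wide (95039115 to 95039767) and intergenic, centred 12.8 kb after the start and so beyond the gene's far end. The Jun and Egr2 peaks across the start were of almost equal width, 4193 and 4231 base pairs, and differed in their list.

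Fos and Junb had no row in either list. Fos (chromosome 12, 85473890 to 85477274), the partner gene whose product forms AP-1 with Jun, had a peak of 2609 base pairs (85472025 to 85474633) from 1865 base pairs before the start to 743 after it. None of the 13 peaks within 50 kb of Fos was lower, a count of 0 that allows a share of up to 23.1% (3 counts of the 13, for counting error only, with neighbouring peaks not independent), and the nearest lower peak was centred 107 kb after the start and assigned to Jdp2. Junb (chromosome 8, 84976909 to 84978748, minus strand), the gene of a JUN protein that often restrains Jun, had a peak of 3392 base pairs (84977290 to 84980681) over 79.3% of the gene. Around Junb 3 of 10 peaks were lower, all assigned to its neighbours, and the nearest was centred at −7.14 kb from the Junb start and assigned to Hook2.

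Ier2 (chromosome 8, 84661331 to 84662852, minus strand) encodes a small nuclear protein with neither the zinc fingers of EGR factors nor the leucine zipper of AP-1. It was the only gene of the 10 with no H2A.Z peak over it, and the nearest peak, in neither list, was 531 base pairs wide and centred 15.4 kb after the start. Its 2 lower rows were peaks of 785 base pairs (84579743 to 84580527) and 2229 base pairs (84600025 to 84602253). In the authors' deposited table these lay 82.7 and 61.7 kb from the Ier2 start, in exon 26 of 47 and intron 30 of 45. Both positions are inside Cacna1a, a calcium channel gene that the RefSeq table places beside Ier2, so they are peaks of Cacna1a by position and of Ier2 only as the nearest start.

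By the authors' own assignment, 8 of the 10 genes had at least 1 lower peak and 0 had a higher one. Of protein-coding genes, 26.8% had at least 1 lower peak so assigned, whether or not they had any H2A.Z peak. Over the whole peak set 14.8% of peaks were in the list of lower peaks and 0.518% in that of higher peaks. Those 2 are shares of peaks and not of genes, so they cannot be set against the 8 or the 0 of 10. The genes were picked with earlier results known, so the 8 of 10 is a description. Its difference from the 26.8% was not tested. The 12 rows were shared out as 5 for EGR genes, 5 for FOS and JUN genes and 2 for Ier2. Of these 12, 5 lay over the gene named and 7 lay elsewhere. Fosb, Jun and Ier2 were among the 8 only through peaks that lay elsewhere. With only peaks within 10 kb of the start in the authors' deposited table, 6 of the 10 genes had a lower one.

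Where the centre of the peak had to lie within 1 kb of either end of the gene, 5 of the 10 genes had a peak and 2 had a lower one, Egr1 and Egr4. Among all genes with a peak so placed 27.1% had a lower one, and among protein-coding genes 31.5%. The ends were those of the gene table, and for Egr2 the upstream end lies 3400 base pairs before the start used here. With the start used here as a further end, a setting added after the values were seen, Egr2 also counted and 3 of 6 genes had a lower peak. The broad peaks of Egr3, Fosb and Fosl2 were centred too far from an end to count either way. Within 3 kb, 5 of 8 genes had a lower peak, against 33.0% of protein-coding genes, so the count depended on the window. The RefSeq promoter table, which runs from 250 bases before to 50 bases after a start, held 7 of the 10 genes, all with a peak over this window. It was lower at 3, Egr2, Egr4 and Fosl2, and in neither list at 4. Over all genes with a peak over such a window, 27.7% had a lower one.

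**Figure D2:**
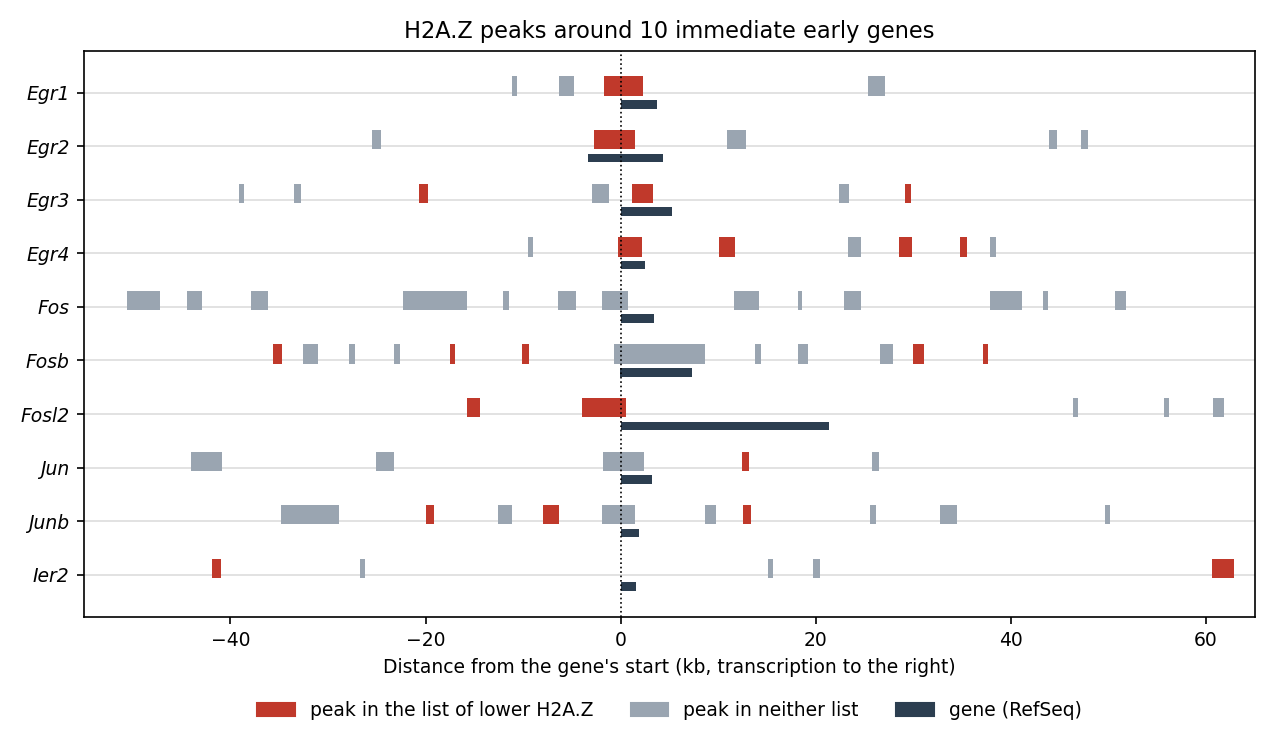
All H2A.Z peaks centred in each gene or within 50 kb of it, and the peaks assigned to it that fall in the range shown, against distance from the start in kb with transcription to the right. Red boxes are peaks in the list of lower H2A.Z, grey boxes are peaks in neither list and dark bars are genes: the Fos row holds 13 grey boxes and no red one, and the Egr4 and Fosb rows hold 4 and 5 red boxes.

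Around the 10 genes, 21 of 72 peaks centred in the gene or within 50 kb of it were lower (29.2%, 95% exact Clopper-Pearson interval 19.0 to 41.1%, for the counting of peaks only), and 0 were higher. Of peaks within 50 kb of any protein-coding gene 16.6% were lower. Neighbouring peaks share a locus and are not independent, so the interval is likely too narrow. The genes were also picked with earlier results known, which the interval does not allow for. The 29.2% and the 16.6% are therefore a description, and their difference was not tested. The share of lower peaks was 57.1% at Egr4, 42.9% at Egr3, 41.7% at Fosb and 40.0% at Fosl2. It was 3 of 10 peaks at Junb, 25.0% at Egr1 and at Ier2, 20.0% at Egr2 and at Jun, and 0% at Fos. These shares rest on 4 to 13 peaks each, and their order was not tested. Of the 21 lower peaks 10 were assigned to the gene itself and 11 to a neighbour.

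The neighbours with a lower peak were Fbxo41 beside Egr4, Bin3 beside Egr3, Lyl1 beside Ier2, Vasp, Ppm1n and Ercc1 beside Fosb, and Hook2 and Rnaseh2a beside Junb. Rnaseh2a encodes the catalytic subunit of RNase H2, which like RNase H1 cuts the RNA of RNA:DNA hybrids. Its lower peak was 784 base pairs wide (chromosome 8, 84965376 to 84966159) and lay 309 base pairs after its start, in intron 1 of 7, in the authors' deposited table. Ercc1, a nucleotide excision repair gene, had a lower peak of 886 base pairs at 133 base pairs after its start in the same authors' deposited table. In the authors' deposited table Vasp, an actin regulator gene, had one of 501 base pairs in its promoter, Hook2, a microtubule linker gene, had 2, and Lyl1, a blood cell transcription factor gene, had 1 at its transcript end.

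The peaks over 9 of the 10 genes were broad beside the whole peak set. Of these 9, 8 covered a start. Widths of peaks over other genes or starts were not taken, so breadth is not shown to be particular to these genes. The 5 lower ones were 2156 to 4449 base pairs wide, with a median of 3969, and the 4 in neither list were 2609 to 9321 base pairs wide, with a median of 3792.5. All lower peaks of the set had a median of 1034 base pairs and all peaks in neither list one of 967. The narrowest of the 9, at Egr3, was wider than 81.8% of the peak set, and that at Fosb wider than 99.6%. The 2 sets of widths overlapped, so width did not separate the lower peaks at these genes from the unlisted ones. Of all peaks at least as wide as that at Egr3, 12.1% were lower. The 7 lower peaks away from the genes were 501 to 2229 base pairs wide, with a median of 785.

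**Figure D3:**
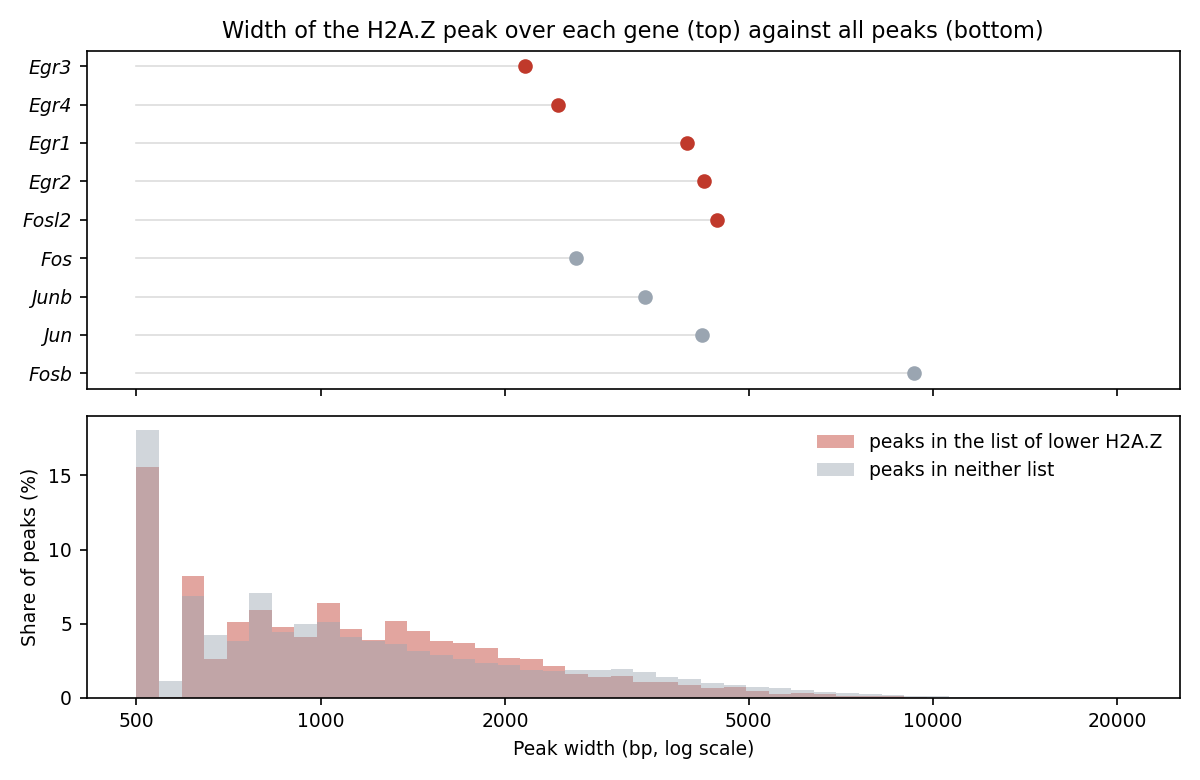
Width of the H2A.Z peak over each of 9 genes (top) and of all peaks as a share of their list in percent (bottom), on a log axis in base pairs, with peaks in the list of lower H2A.Z in red and peaks in neither list in grey. The red points lie between 2156 and 4449 base pairs and the grey points between 2609 and 9321, all to the right of the medians of all peaks.

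The promoters of the 7 genes in the sequence table held 6 of the 9 motifs searched in at least 1 gene. All 7 lie under an H2A.Z peak, so the share of the 13888 windows under a peak is given beside that of all 32851 windows. A CArG box, the SRF site, stood only in Egr2, at −72 to −63 before the start, and in 1.35% of windows under a peak and 1.63% of all windows. The CRE core TGACG was in 5 of the 7, Egr2, Egr4, Fos, Fosb and Junb, against 26.6% of windows under a peak and 20.8% of all windows. The whole CRE (TGACGTCA, which contains that core), the ETS core CCGGAA and the AP-1 site TGANTCA were in 0 of the 7 windows. The whole CRE was in 2.58% of windows under a peak and 1.79% of all windows, the ETS core in 22.2% and 14.9%, and the AP-1 site in 5.49% and 7.81%. Each motif was read on both strands, and a missing motif says only that these letters are not in this window. In the 30 bases shown for Egr2 the CArG box was followed by a CRE core on the other strand at −55 to −51.

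The EGR site GCGNGGGCG was in Fosb at −50 to −42 and in Fosl2 at −79 to −71, with the same letters in both, and in 9.17% of windows under a peak and 5.55% of all windows. In both it overlapped a GC box. The GC box GGGCGG was in 4 of the 7, Fos, Fosb, Fosl2 and Jun, against 56.4% of windows under a peak and 35.7% of all windows. The TATA box TATAAA was in Fos at −33 to −28 and in Junb at bases 1 to 6, against 6.75% of windows under a peak and 13.6% of all windows. CCAAT was in Egr2, Jun and Junb, against 35.6% of windows under a peak and 37.4% of all windows. With 7 promoters, none of these counts was tested. Genes with a lower peak and genes with an unlisted peak both held the EGR site and the CRE core.

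All 7 promoters held more G and C than the median of all windows, and all but Fos more than the median of windows under a peak. Over the 250 bases before the start G and C made up 68.0% at Egr4, 64.4% at Fosl2 and 61.6% at Egr2, where the peak was lower. They made up 68.8% at Fosb, 66.4% at Junb, 61.2% at Jun and 58.4% at Fos, where it was unlisted. The median was 58.8% for windows under an H2A.Z peak and 52.4% for all windows. CpG dinucleotides relative to their expected number stood at 0.971 in Egr4, 0.893 in Fosl2 and 0.723 in Egr2, and at 0.762 in Junb, 0.705 in Fos, 0.676 in Jun and 0.66 in Fosb. The median of this ratio was 0.641 for windows under a peak and 0.374 for all windows. GC skew, the excess of G over C on the strand of the transcript as a share of both, is a feature known from sequences that form R-loops. Here GC skew was taken only over the same 250 bases before the start. Skew of the bases after the start was not taken, so these values do not describe the transcribed sequence. At each gene the skew is that of the start used here. This skew before the start was 0.0807 at Fosl2, 0.0471 at Egr4 and −0.0909 at Egr2, and 0.229 at Jun, 0.163 at Fosb, −0.0411 at Fos and −0.217 at Junb. Median skew was −0.00515 for windows under a peak and 0.0 for all windows. The ranges of G and C content and of skew overlapped between the lower and unlisted genes. The 3 CpG ratios of lower genes and the 4 of unlisted genes overlapped as well.

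The 3 further lists were other immediate early genes, bZIP partners with EGR corepressors, and upstream regulators. In each list 36.8 to 46.7% of the genes with a peak at a gene end had a lower one, against 31.5% of protein-coding genes. Of 40 further immediate early genes 19 had a peak at a gene end and 7 a lower one (36.8%, against 31.5% of protein-coding genes). From the widest these were Trib1, a pseudokinase gene (2916 base pairs), Ier5 (1949), the ERK phosphatase gene Dusp5 (1886), Ccn2 (1740), the AP-1 gene Fosl1 (1434), Id1 (637) and Btg2 (501). The Ccn2 peak carried no gene name in the authors' deposited table. By the authors' assignment 21 of the 40 had a lower peak, against 26.8% of protein-coding genes, and 1 had a higher one. Over all peaks 0.518% were in the list of higher peaks. That is a share of peaks and not of genes, so it cannot be set against the 1 of 40. The gene with a higher one was Btg1, an antiproliferative gene with 2 higher peaks, singled out after its values were seen.

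Among 22 bZIP partners and EGR corepressors 13 had a peak at a gene end and 5 a lower one (38.5%). These were Jdp2, an AP-1 repressor gene (2006 base pairs, chromosome 12, 85598444 to 85600449), Batf2 (1530), Fosl1 (1434), Mafk (1047) and Nfe2l2, the gene of the antioxidant factor Nrf2 (501). Jdp2 had 3 lower peaks by the authors' assignment, and the lower peak nearest to Fos is 1 of these. Of the 22 genes, 9 had a lower peak so assigned, against 26.8% of protein-coding genes. This list shares 4 genes with the one before it, Atf3, Fosl1, Jund and Maff.

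Among 30 upstream regulators 15 had a peak at a gene end and 7 a lower one (46.7%). They were Mrtfb, an SRF coactivator gene (1962 base pairs), the ETS factor gene Elk3 (1448), the JNK gene Mapk9 (1357), Creb1 (1165) and Crem (919), which encode factors that bind the CRE, the RSK kinase gene Rps6ka1 (884) and the acetyltransferase gene Crebbp (628). By the authors' assignment 13 of the 30 had a lower peak, against 26.8% of protein-coding genes. None of the 30 had a higher peak so assigned, a count of 0. Only 318 of the 61420 peaks were in the list of higher peaks. The share of protein-coding genes with a higher peak was not taken, so this count of 0 says little about these genes. Over the gene or within 1 kb the counts were 11 of 28, 7 of 17 and 10 of 22 for the 3 lists, against 37.6% of protein-coding genes of any length. No list was tested, and none is called apart from other genes.

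**Figure D4:**
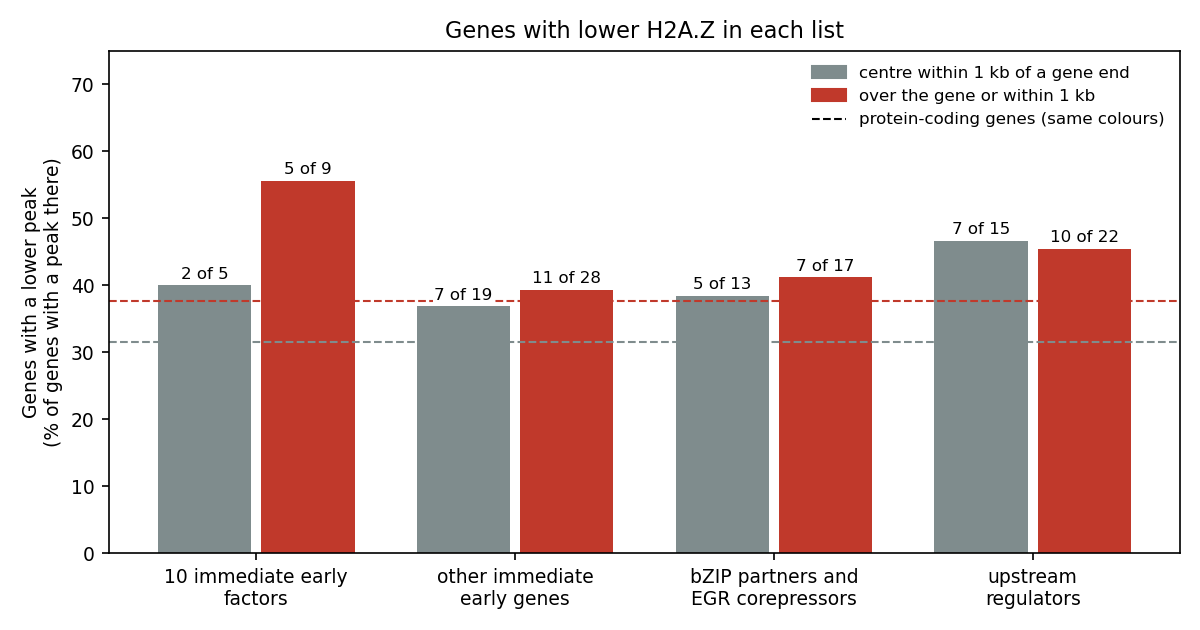
Genes with a lower peak as a percentage of the genes with a peak at that place, for the 10 genes and the 3 further lists, with the counts above the bars. Grey bars are peaks centred within 1 kb of a gene end and red bars are peaks over the gene or within 1 kb. Dashed lines give protein-coding genes of any length, 31.5% in grey and 37.6% in red. For the 10 genes the red bar stands at 5 of 9 and the grey bar at 2 of 5. The 10 genes and the lists were chosen with earlier results of these data known, and no bar was tested.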

How the data were processed

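H2A.Z CUT&Tag of doxycycline-treated and control mouse embryonic stem cells was analysed from 3 tables of the whole series. The submitters' processing notes name Trimmomatic, Bowtie2, Picard, HOMER, deepTools and GRCm38. HOMER annotatePeaks on mm10 annotated the lists, per the file headers. How peaks were called, which test and threshold made the lists, and whether replicates were pooled is not given in the sources used here. The peak score that the authors deposited is 0 throughout and was not used. All 9395 listed peaks matched a peak of the set exactly, and starts are printed counting from 1. Peak depth is unknown.

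Genes came from a RefSeq table of GRCm38.p6, which matched all 10 by symbol. The authors' peak lists were joined to the 10 genes by gene name. For all protein-coding genes and the 3 further gene lists the join was by Entrez ID. Starts and strands came from the RefSeq promoter table for 7 genes, for Egr2 with the start of its 5 that the authors' distance points to. For Egr1, Egr3 and Ier2 the start was the end of the gene table on the strand that the authors' signed distances give. Peaks were counted at a gene end (centre within 1 kb), over the gene (overlap with the gene extended by 1 kb) and around it (centre within 50 kb). Named genes were all 10, neighbours with a lower peak within 50 kb, and in each list up to 8 genes whose ends had a lower peak, taken by width. No test was run, since no file gives a value per library. The 10 genes and the 3 lists were chosen with earlier results of these data known. The counting was tested on simulated data with known answers. Software was pandas 2.3.3, numpy 2.4.6, matplotlib 3.10.9 and SciPy 1.17.1 under Python 3.11.15.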

Additional observations from a re-analysis of the deposited data

How the results depend on the processing

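Of 41 alternatives, 28 left their result within the range set for it and 13 moved it. The range was 1.5 times for a count, and for a share or a median its 95% interval. For lower peaks at a gene end, the count was 2 of 5 genes with a peak there (31.5% of protein-coding genes), 1 of 3 within 500 base pairs (29.8%), 5 of 8 within 3 kb (33.0%), 4 of 8 with any overlap of the window (31.9%) and 5 of 9 with any overlap of the gene extended by 1 kb (37.6%). Of the further immediate early genes 7 had one, with 4 within 500 base pairs and 11 both within 3 kb and over the gene. Of the bZIP partners 5 had one and 3 within 500 base pairs, and of the upstream regulators 7 and 11 within 3 kb. The share of lower peaks around the 10 genes was 42.9% within 10 kb (9 of 21 peaks, 95% interval 21.8 to 66.0%, for counting only). Within 10 kb, 19.5% of peaks near protein-coding genes were lower. The 9 include the lower peaks over the genes, which were picked with earlier results known, and this difference was not tested. The share was 33.1% within 100 kb and 35.6% without the Fos locus. The setting without the Fos locus was added after the data were seen, as were the promoter window, the added Egr2 start and the alternatives for the lists. The median width of lower peaks assigned to the genes was 1727.5 base pairs (95% interval 653 to 3969), 3206 for the 2 at a gene end and 4231 for the authors' promoter class, which holds 1 peak. That interval treats the 12 peaks as independent draws, which they are not, since 4 genes hold 2 of them each. Of the 12, 7 were taken only because the list of lower peaks named the gene. It serves here only as the range for the alternatives. The background at gene ends was 27.1% (26.4 to 27.8%), and 31.5% for protein-coding genes only. The TATA box count was 1 without the bases after the start. These moves follow from which peaks or bases each setting counts. No paired analysis was possible because no file gives a value per library, and for the same reason no replicate could be left out. Peak height and depth are unknown, so a peak in neither list may still have changed by less than the authors' lists required.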

Other observations

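The lower peaks at these genes took different places along the gene. At Fosl2 the lower peak lay mostly before the start (3950 base pairs before and 498 after), at Egr4 mostly after it (294 before and 2148 after) and at Egr3 wholly after it, while at Egr1 and Egr2 it lay on both sides. The 4 unlisted peaks over the genes all covered the start. Fosb lay mostly after it (691 base pairs before and 8629 after) and Fos mostly before it (1865 before and 743 after). Jun (1782 before and 2410 after) and Junb (1933 before and 1458 after) lay on both sides.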
